A study of Homo sapiens with 6 samples.

Results

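PAX2, PAX8, HNF4A, HNF4G, LHX1, EMX2, WT1 and POU3F3 are transcription factor genes known for their part in the renal epithelium. They were taken by gene symbol from the platform annotation of the array, which gave 16 probe sets for 7 of the 8 genes, out of 18239 genes with a probe set of their own. Probe sets that name several genes were not used, and no other probe set carried the symbol HNF4A, so HNF4A was not analysed here. PAX8 had 4 probe sets, LHX1 had 3, PAX2, HNF4G, WT1 and POU3F3 had 2 each, and EMX2 had 1. The main probe set of a gene is the brightest over all arrays.

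The RNA came from HK-2 cells, an established human line derived from the proximal tubule, and was hybridized to 6 Affymetrix U219 arrays, 2 per group. The groups were untreated control cells, cells given 50 μM cisplatin for 6 h and cells given 50 μM cisplatin for 24 h. Cisplatin is a platinum drug that crosslinks DNA and injures the tubule. All results come from 1 cell line, whose medium held epidermal growth factor in every group. The labels give the control cells no time in culture, so cisplatin and time cannot be told apart. The arrays of a group are labelled biological replicates with no word on separate cultures, so each p-value reflects the scatter of these arrays, which may be technical. The values are log2 signals of arrays whose probe signals were given a common distribution before they were summarized, so a difference is read relative to everything else on the array. In bulk RNA, fewer cells of a type and less RNA per cell cannot be told apart.

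The kidney tubule is laid down by a small set of transcription factors, some of which remain in use in the adult. PAX2 and PAX8 are paired-box proteins that commit mesoderm to the nephric lineage, and LHX1, a LIM homeobox protein, and EMX2, a homeobox protein, act with them in the nephric duct and ureteric bud, as known from the mouse. HNF4A and HNF4G are closely related nuclear receptors of epithelia, and HNF4A drives the maturation of the proximal tubule. WT1 is a zinc finger protein of the nephron progenitors and of the podocyte, and POU3F3 is a POU-domain protein of the loop of Henle and distal tubule in the mouse.

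PAX8 and EMX2 were the genes of the set whose main probe set passed a comparison below and that had a promoter window in the RefSeq table. The table held 9 windows for 5 of the 7 measured genes. The windows are shown for the letters that precede the start of each gene, with 250 bases before it and 50 after it, on the strand of the gene. The PAX8 window is chr2:113278872-113279171 on the minus strand and the EMX2 window is chr10:117542496-117542795 on the plus strand, both of GRCh38.p14. Capitals mark matches on either strand to any of 6 motifs, which are the TATA box TATAAA, the GC box GGGCGG, the CCAAT box with the letters CCAAT, the AP-1 motif TGANTCA, the cyclic AMP response motif TGACGTCA and the EGR and WT1 type motif GCGNGGGNG.
PAX8: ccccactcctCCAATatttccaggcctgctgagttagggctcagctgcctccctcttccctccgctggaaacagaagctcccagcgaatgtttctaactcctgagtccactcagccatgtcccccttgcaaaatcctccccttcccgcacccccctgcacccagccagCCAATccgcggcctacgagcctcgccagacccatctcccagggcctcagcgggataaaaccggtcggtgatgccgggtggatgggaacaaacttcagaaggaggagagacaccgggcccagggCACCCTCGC
EMX2: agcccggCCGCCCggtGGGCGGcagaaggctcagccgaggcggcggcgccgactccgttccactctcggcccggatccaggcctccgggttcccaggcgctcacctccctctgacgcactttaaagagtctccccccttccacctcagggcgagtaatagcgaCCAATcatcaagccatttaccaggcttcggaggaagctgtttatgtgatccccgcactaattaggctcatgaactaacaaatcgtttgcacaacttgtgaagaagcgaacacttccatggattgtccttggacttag

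The PAX8 window held 2 matches to CCAAT and 1 to GCGNGGGNG, and its share of G and C bases was 62.0%. The EMX2 window held 2 matches to GGGCGG and 1 to CCAAT, with 58.0% G and C bases. Over 35116 promoter windows of the same length, 34.6% held CCAAT, 45% held GGGCGG and 18.8% held GCGNGGGNG, and the median share of G and C bases was 58.7%. Neither window held the TATA box, the AP-1 motif or the cyclic AMP response motif, which 11.5%, 7.71% and 1.85% of all windows held. The CCAAT box was the motif found in both windows. No overlap between matches of different motifs was found in them.

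To examine whether cisplatin altered the expression of these factors, limma was fitted once to the main probe sets of all genes on the 6 arrays, and genes with an adjusted p below 0.05 were counted as passing. At 6 h, 2 of the 7 genes, PAX8 and HNF4G, were lower than in control cells and none was higher. Of all genes, 29.8% passed in this comparison, 14.0% higher and 15.8% lower. At 24 h the same 2 genes were lower and EMX2 was higher, when 54.2% of all genes passed, 31.2% higher and 23.0% lower. Between the treatment times, 24 h against 6 h, PAX8 and HNF4G were lower again and EMX2 was higher, when 37.9% of all genes passed, 21.2% higher and 16.7% lower. By the rule of the study's methods, an absolute log2 difference of at least 1 (2-fold) with an unadjusted p under 0.01, PAX8 passed at 6 h, PAX8 and HNF4G at 24 h and none of the 7 between the times, when 4.93%, 12.1% and 3.37% of all genes passed. The median log2 difference of the 7 genes from control was -0.10 at 6 h (all genes 0.03) and 0.09 at 24 h (all genes 0.10), and that of 24 h against 6 h was 0.06 (all genes 0.07). Thus a fall of PAX8 and HNF4G at both times stood beside 4 genes, LHX1, WT1, PAX2 and POU3F3, whose main probe sets did not pass in any of the 3 comparisons.

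**Figure D1:**
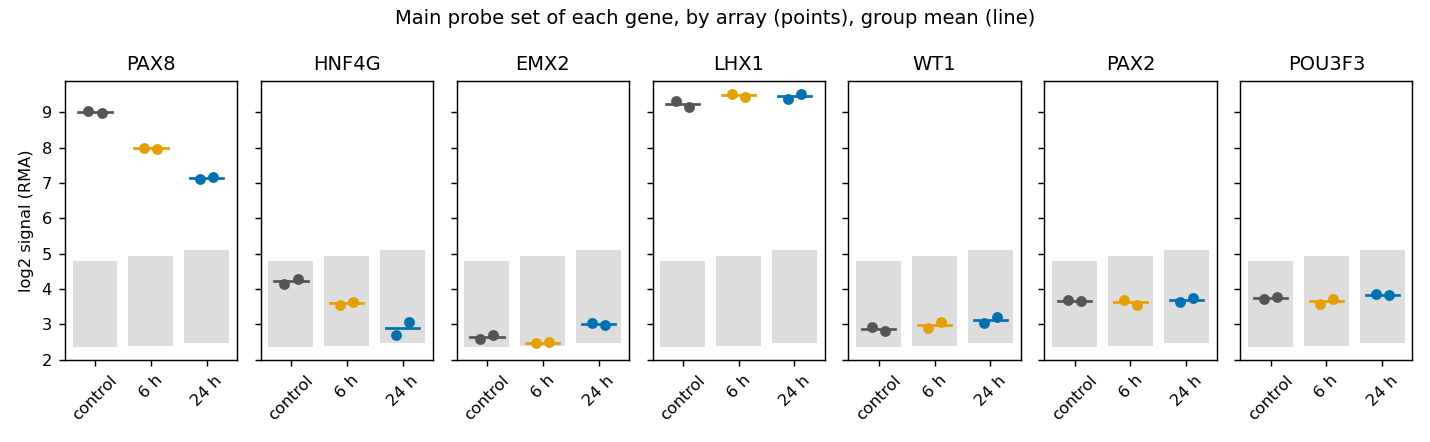
Log2 signal of the main probe set of each gene on every array (points) with the group mean (line), for control cells, 6 h and 24 h of 50 μM cisplatin, 2 arrays each. Grey bars span the 5th to 95th percentile of the main probe sets of 449 sensory and hair genes in that group. The panels share an axis for space, and levels of different probe sets are not comparable. PAX8 is lower at each treatment time, as is HNF4G inside the grey range, and the other genes differ from control by at most 0.37.

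PAX8, the paired-box factor that stays on in the mature tubule, showed the clearest change. Its main probe set (11724662_a_at) read 9.04 and 8.99 in control cells, 8.0 and 7.95 at 6 h and 7.11 and 7.15 at 24 h. The groups did not overlap, and the arrays of a group lay within 0.06 of each other. The log2 difference from control was -1.04 at 6 h (SE 0.08, 95% interval -1.22 to -0.86, limma adjusted p = 3.06e-05), which is 2.06-fold lower. At 24 h it was -1.88 (SE 0.08, 95% interval -2.06 to -1.70, limma adjusted p = 5.35e-07), which is 3.69-fold lower. The further fall between the times was also larger than the spread, at -0.84 (SE 0.08, limma adjusted p = 1.30e-04). Of all 18239 genes, 580 (3.18%) had a lower log2 difference at 6 h and 320 (1.75%) at 24 h. Against control, PAX8 kept this direction and passed at both times under every alternative that was tried. Its value moved by more than 1.5 times with the mean of all its probe sets, to -0.46 at 6 h and -1.23 at 24 h. It also did so with the arrays scaled to the poly-A spike-ins, bacterial control RNAs added to the sample, which gave -1.58 at 6 h and -3.09 at 24 h and shifted the median of all genes to -0.51 and -1.11.

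The 4 PAX8 probe sets did not move alike. Probe set 11724660_a_at read 7.08 and 7.01 in control cells, 6.06 and 6.43 at 6 h and 5.51 and 5.39 at 24 h. Probe set 11724661_x_at, whose suffix marks probes that may also bind other transcripts, read 7.06 and 6.97 in control cells, 5.94 and 5.76 at 6 h and 5.48 and 5.19 at 24 h. Both fell at both times like the main probe set, with log2 differences of -0.80 and -1.17 at 6 h (limma over all probe sets, adjusted p = 0.0032 and 3.91e-04) and of -1.59 and -1.69 at 24 h (adjusted p = 3.92e-05 and 2.26e-05). Probe set 11741652_a_at took another course. It read 4.97 and 4.80 in control cells, 6.25 and 5.89 at 6 h and 5.04 and 5.18 at 24 h. At 6 h it was thus 2.28-fold higher than in control cells (log2 difference 1.19, SE 0.13, limma over all probe sets, adjusted p = 5.69e-04), while the other 3 PAX8 probe sets were lower. At 24 h its difference from control was 0.22 (95% interval -0.09 to 0.53, adjusted p = 0.211), and between the times it fell by 0.96 (adjusted p = 0.00172). The suffix _a_at marks probes shared by several transcripts of 1 gene. Which PAX8 transcripts each probe set reads is not given in the sources used here, so the difference between probe sets was not resolved to transcripts.

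**Figure D2:**
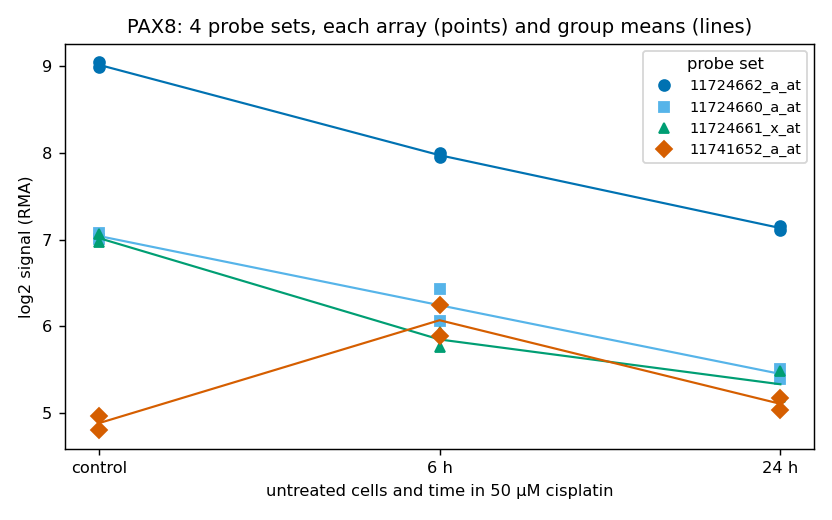
Log2 signal of the 4 PAX8 probe sets on each array (points) with lines through the group means, for control cells and for 6 h and 24 h of 50 μM cisplatin. Probe sets 11724662_a_at, 11724660_a_at and 11724661_x_at decline at each time, and 11741652_a_at peaks at 6 h with 6.25 and 5.89.

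Of the 16 probe sets, 1 passed as higher at 6 h and 4 passed as lower, against 9.69% higher and 12.3% lower (22.0% in all) among the 49293 probe sets that are no controls. At 24 h 4 were higher and 4 lower, against 25.3% higher and 20.0% lower (45.3% in all). Between the times 2 were higher and 5 lower, against 15.2% and 12.9% (28.2% in all). The 4 probe sets that were lower at 24 h were 3 of PAX8 and 1 of HNF4G, and the 4 that were higher belonged to EMX2, LHX1, WT1 and POU3F3.

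**Figure D3:**
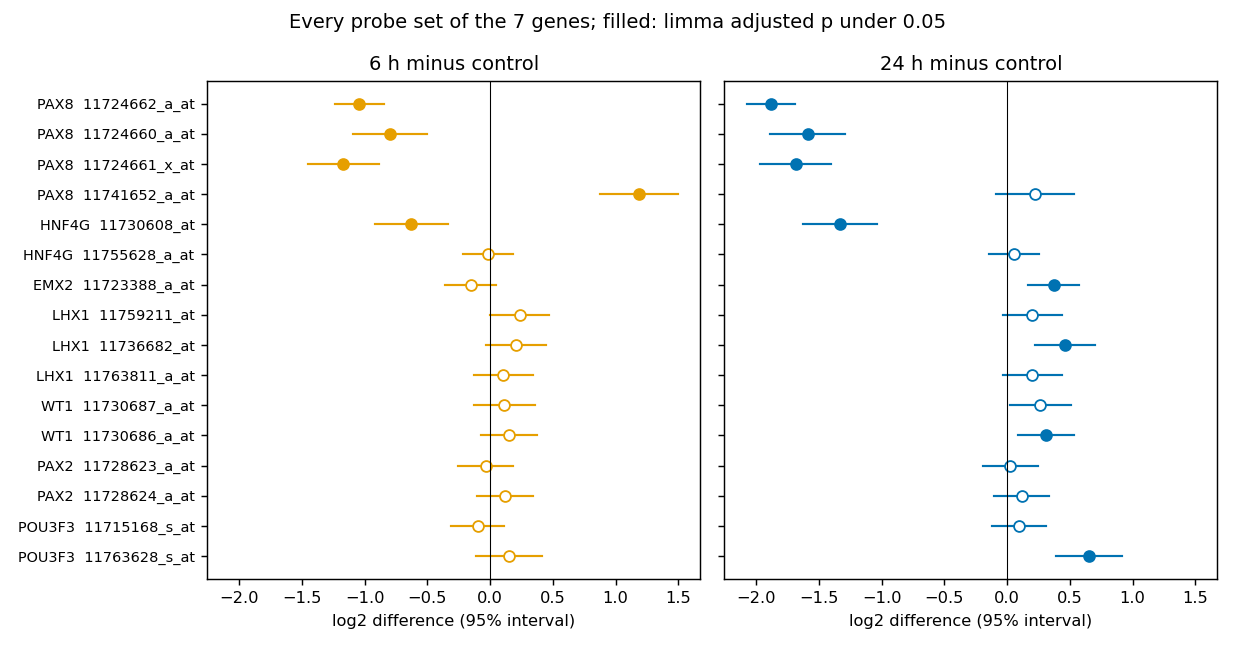
Log2 difference from control cells (points) with the 95% interval (lines) for all 16 probe sets, at 6 h (left) and 24 h (right) of 50 μM cisplatin. Filled points passed limma at an adjusted p under 0.05 over all probe sets. Only PAX8 and HNF4G have points far left of 0, and 1 PAX8 probe set lies at 1.19 at 6 h.

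HNF4G, the nuclear receptor related to HNF4A, fell at both times on its main probe set. Probe set 11730608_at read 4.15 and 4.29 in control cells, 3.56 and 3.63 at 6 h and 2.71 and 3.06 at 24 h, with no overlap between groups. The log2 difference was -0.63 at 6 h (SE 0.12, 95% interval -0.90 to -0.35, limma adjusted p = 0.0045). It was -1.33 at 24 h (SE 0.12, 95% interval -1.61 to -1.06, limma adjusted p = 2.90e-05), and -0.71 between the times (limma adjusted p = 0.00234). The second probe set, 11755628_a_at, read 2.73 and 2.66 in control cells, 2.71 and 2.64 at 6 h and 2.77 and 2.72 at 24 h. Its difference from control was -0.02 at 6 h (95% interval -0.22 to 0.18) and 0.05 at 24 h (95% interval -0.15 to 0.25), and neither passed. HNF4G thus rests on 1 probe set, and the mean of both gave -0.32 at 6 h and -0.64 at 24 h, which passed as well (limma adjusted p = 0.0106 and 1.00e-04). Scaling to the poly-A spike-ins moved the values to -1.17 at 6 h and -2.54 at 24 h. The 6 h value does not reach the 2-fold difference of the methods' rule.

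The deposited table carries no detection calls. The main probe sets of 449 genes of the odorant receptor, bitter taste receptor and hair keratin-associated families were therefore used as a stand-in for unexpressed genes. This is a rough guide, since background differs between probe sets. Some of these genes may be expressed in renal cells, which was not tested. The 5th and 95th percentiles of the 449 genes were 2.35 and 4.81 in control cells, 2.38 and 4.94 at 6 h, and 2.46 and 5.11 at 24 h. This span is called the range of unexpressed genes here. Of the 16 probe sets, 5 lay above the upper end in every group (3 of PAX8 and 2 of LHX1), 10 lay above it in no group, and PAX8 11741652_a_at lay above it in control cells and at 6 h but not at 24 h. Thus of the 7 genes, PAX8 and LHX1 had a main probe set clear of this range, and HNF4G, EMX2, WT1, PAX2 and POU3F3 did not. The control signal of HNF4G was in the upper part of that range, so its differences and those of the other 4 genes are differences of signal and do not measure the size of a change in transcript. At 24 h, 85 of the 449 genes (18.9%) were higher than in control cells and 4 (0.891%) were lower. The median of these genes was 0.13 at 24 h, with a 5th to 95th percentile of -0.14 to 0.45. At 6 h, 5 were higher (1.11%) and 7 lower (1.56%).

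The arrays also hold 23 background probe sets, made of 25-base probes that match no human transcript and ordered by their number of G and C bases, which runs from 3 to 25. Their mean was 0.27 higher at 24 h than in control cells, and all 23 were higher, by 0.06 to 1.15. The 8 with 18 or more G and C bases were higher by 0.59 on average, and the 15 with fewer by 0.10. At 6 h the mean was -0.02, with 4 probe sets higher and 19 lower. The background thus read higher at 24 h in both arrays, whose background means were 3.17 and 3.21 against 2.92 and 2.92 in the control arrays.

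**Figure D4:**
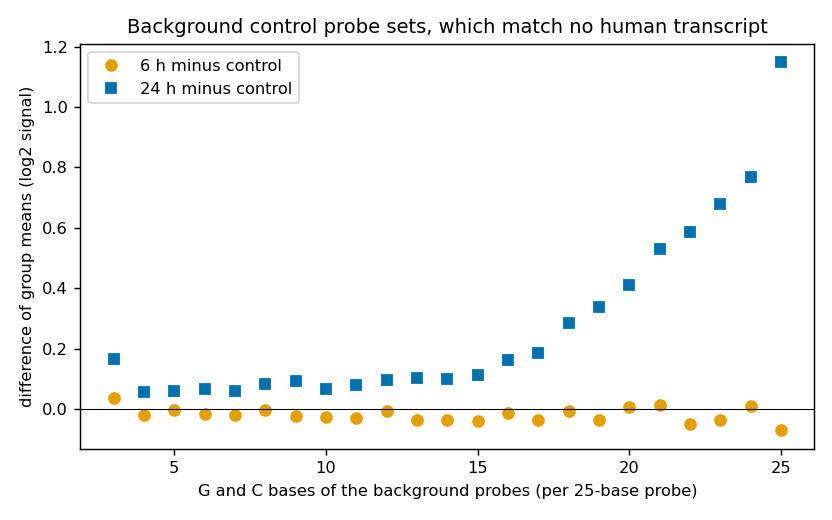
Difference of group means (log2 signal) of the 23 background probe sets against control cells, by the number of G and C bases in their probes. At 6 h (circles) the points lie between -0.07 and 0.04. At 24 h (squares) all lie above 0 and reach 1.15 at 25 G and C bases.

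EMX2, the homeobox gene, was the gene of the set that passed as higher, at 24 h. Its probe set 11723388_a_at read 2.57 and 2.69 in control cells, 2.47 and 2.49 at 6 h and 3.03 and 2.98 at 24 h. The 24 h arrays were the highest and did not overlap with the others. The log2 difference was -0.15 at 6 h (95% interval -0.34 to 0.04, limma adjusted p = 0.215). At 24 h it was 0.37 (SE 0.08, 95% interval 0.18 to 0.56, limma adjusted p = 0.00508), and 0.52 between the times (limma adjusted p = 0.00156). This value lies inside the range of the 449 sensory and hair genes at 24 h, and 77.0% of all genes had a lower one. It dropped to 0.10 (adjusted p = 0.348) with the arrays scaled to the background probe sets, turned to -0.040 (adjusted p = 0.763) with the hybridization spike-ins and turned to a fall of -0.51 and -0.84 with all spike-ins and the poly-A spike-ins. The rise does not reach the 2-fold difference of the methods' rule. The part of the background signal in it was not tested.

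LHX1, the LIM homeobox gene, was bright on its main probe set and did not pass in any comparison of the main probe sets. Probe set 11759211_at read 9.33 and 9.16 in control cells, 9.52 and 9.44 at 6 h and 9.37 and 9.52 at 24 h. The differences from control were 0.24 at 6 h (95% interval 0.02 to 0.46, limma adjusted p = 0.104) and 0.20 at 24 h (95% interval -0.02 to 0.42, limma adjusted p = 0.109). For this probe set in the deposited values, changes of more than 0.46 in either direction thus lie outside these intervals. The intervals do not cover the other scalings, under which the 24 h difference turned to a fall with all spike-ins and with the poly-A spike-ins. The treated arrays were all above the control arrays, and both differences passed with trend and robust settings of eBayes (limma adjusted p = 0.00962 at 6 h and 0.0176 at 24 h). The 6 h difference also passed with the filter on low signal (adjusted p = 0.0497), and LHX1 passed at 24 h with the mean of its 3 probe sets (0.29, adjusted p = 0.0103). Between the times LHX1 passed as lower with the hybridization spike-ins (-0.35, adjusted p = 0.0203) and with the background probe sets as the scale (-0.32, adjusted p = 0.0199), and with all or the poly-A spike-ins (-0.55 and -0.71, adjusted p = 0.00185 and 4.05e-04). Probe set 11736682_at read 6.64 and 6.75 in control cells, 6.81 and 7.0 at 6 h and 7.11 and 7.21 at 24 h. It was 0.21 above control at 6 h (adjusted p = 0.209) and passed as 0.46 higher at 24 h (SE 0.10, 95% interval 0.22 to 0.70, limma over all probe sets, adjusted p = 0.00743). The 24 h difference of this probe set turned to falls of -0.42 and -0.75 with scaling to all spike-ins and to the poly-A spike-ins. Probe set 11763811_a_at was dim, between 3.02 and 3.37 on all arrays, and did not pass at 6 h or 24 h.

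WT1, the zinc finger factor of podocytes and progenitors, was dim on both probe sets. Its main probe set 11730687_a_at read 2.93 and 2.81 in control cells, 2.91 and 3.06 at 6 h and 3.05 and 3.22 at 24 h. The difference at 24 h was 0.27 (95% interval 0.04 to 0.49, limma adjusted p = 0.0510), and at 6 h it was 0.11 (adjusted p = 0.461). It lies close to the threshold and passed with the mean of both probe sets (0.29, adjusted p = 0.00545) and without the first 24 h array (0.35, adjusted p = 0.0344). Probe set 11730686_a_at read 2.32 and 2.44 in control cells, 2.56 and 2.50 at 6 h and 2.77 and 2.61 at 24 h. It passed as 0.31 higher at 24 h (limma over all probe sets, adjusted p = 0.0307), a call that was lost when any 1 of 5 of the 6 arrays was left out (0.23 to 0.39 over the 6 fits, adjusted p = 0.0301 to 0.137). The main probe set turned to -0.62 with all spike-ins and to -0.95 with the poly-A spike-ins as the scale, and the other to -0.57 and -0.90. WT1-AS, the antisense RNA of the WT1 locus and the only one of 6 antisense or divergent neighbours with a probe set, differed from control by 0.09 at 6 h and 0.21 at 24 h (limma adjusted p = 0.632 and 0.179). Whether the probes keep the strands apart was not tested.

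PAX2, the paired-box relative of PAX8, stayed near its control level in the deposited values. Its main probe set 11728623_a_at read 3.68 and 3.65 in control cells, 3.70 and 3.56 at 6 h and 3.63 and 3.74 at 24 h. The groups overlapped, with differences of -0.04 at 6 h (95% interval -0.24 to 0.16) and 0.03 at 24 h (95% interval -0.18 to 0.23). The 24 h difference turned to a fall with the hybridization, all or poly-A spike-ins as the scale. The same held with the background probe sets as the scale. Probe set 11728624_a_at read 3.09 and 2.91 in control cells, 3.14 and 3.10 at 6 h and 3.15 and 3.08 at 24 h, and did not pass. Both probe sets lay in the signal range of unexpressed genes, where the signal of a probe set need not follow the level of its transcript.

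POU3F3, the POU-domain factor, was dim as well. The suffix _s_at of both its probe sets marks probes that can read transcripts of more than 1 gene. Its main probe set 11715168_s_at read 3.73 and 3.76 in control cells, 3.57 and 3.73 at 6 h and 3.86 and 3.82 at 24 h, with differences of -0.10 (95% interval -0.30 to 0.10) and 0.09 (95% interval -0.10 to 0.29). Probe set 11763628_s_at read 3.16 and 3.44 in control cells, 3.42 and 3.48 at 6 h and 3.89 and 4.01 at 24 h. It was 0.65 higher at 24 h (SE 0.11, 95% interval 0.39 to 0.91, limma over all probe sets, adjusted p = 0.0022) and 0.50 higher than at 6 h (adjusted p = 0.0138), a step that did not pass without the second 24 h array (0.44, adjusted p = 0.0660) or without the first or the second 6 h array (0.47 and 0.53, adjusted p = 0.0836 and 0.0611). The mean of both probe sets passed as 0.37 higher at 24 h than in control cells (adjusted p = 0.00399) and 0.35 higher than at 6 h (adjusted p = 0.00997). The rise of 11763628_s_at against control turned to -0.23 and -0.56 with scaling to all spike-ins and to the poly-A spike-ins, and the part of the background signal in it was not tested.

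By the root mean square difference of log2 values from the control mean over the 6 arrays, the genes most like PAX8 were LMNB1, which encodes the nuclear lamina protein lamin B1, at 0.05, MED27, a Mediator subunit, at 0.05 and ISM1 at 0.06. LMNB1 differed from control by -1.10 at 6 h and -1.83 at 24 h. The median over 18238 genes compared was 1.31. Those most like HNF4G were THOC2, of the mRNA export complex, at 0.05, NPR1, the natriuretic peptide receptor, at 0.08 and HPCAL1 at 0.08, with a median of 0.93 over all genes. Those most like EMX2 were IL13RA2 at 0.02, the odorant receptor gene OR8I2 at 0.03 and GAST, the gastrin gene, at 0.04, with a median of 0.29. The 3 genes nearest to EMX2 had control means of 2.61, 2.74 and 3.04. These are descriptions of 6 arrays in 3 groups.

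Among 44 other kidney transcription factors with a probe set, of 52 listed, 6 were higher (13.6%) and 11 lower (25%) at 6 h, beside 14.0% and 15.8% of all genes. At 24 h 14 were higher (31.8%) and 12 lower (27.3%), beside 31.2% and 23.0% of all genes. The median was 0.12 at 6 h and 0.18 at 24 h. The largest rises at 24 h were ELF3, an epithelial ETS factor, OSR2, a zinc finger relative of the early kidney factor OSR1, and IRX5, an Iroquois homeobox factor. ELF3 averaged 6.14 ± 0.05 in untreated cells, 8.27 ± 0.02 at 6 h and 8.85 ± 0.08 at 24 h (SD, n = 2 each). OSR2 averaged 5.60 ± 0.08 in untreated cells, 7.95 ± 0.04 at 6 h and 8.27 ± 0.00 at 24 h (SD, n = 2 each). Thus both were already more than 4-fold higher than in control cells at 6 h, by 2.13 and 2.35 on the log2 scale, and reached 2.71 and 2.67 at 24 h. IRX5 differed from control by 0.72 at 6 h and 1.44 at 24 h. All 3 stayed higher at 24 h under each scaling, with a lowest value of 1.5 for ELF3, 1.46 for OSR2 and 0.23 for IRX5.

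The largest falls at 24 h were RXRA, the retinoid X receptor that pairs with other nuclear receptors, MEIS2, a TALE homeobox factor, and GLIS3, a zinc finger factor linked to cystic kidney. RXRA averaged 7.39 ± 0.05 in untreated cells, 5.50 ± 0.26 at 6 h and 4.99 ± 0.20 at 24 h (SD, n = 2 each), a difference of -1.89 and -2.40. GLIS3 averaged 7.32 ± 0.09 in untreated cells, 5.72 ± 0.06 at 6 h and 5.20 ± 0.03 at 24 h (SD, n = 2 each), and all 5 of its probe sets were lower at 24 h. MEIS2 differed by -1.87 at 6 h and -2.16 at 24 h, and 2 of its 5 probe sets passed as lower at 24 h. PAX8, at -1.88 at 24 h, lies beside these genes, so a fall of this size was shared by several factors of the list.

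**Figure D5:**
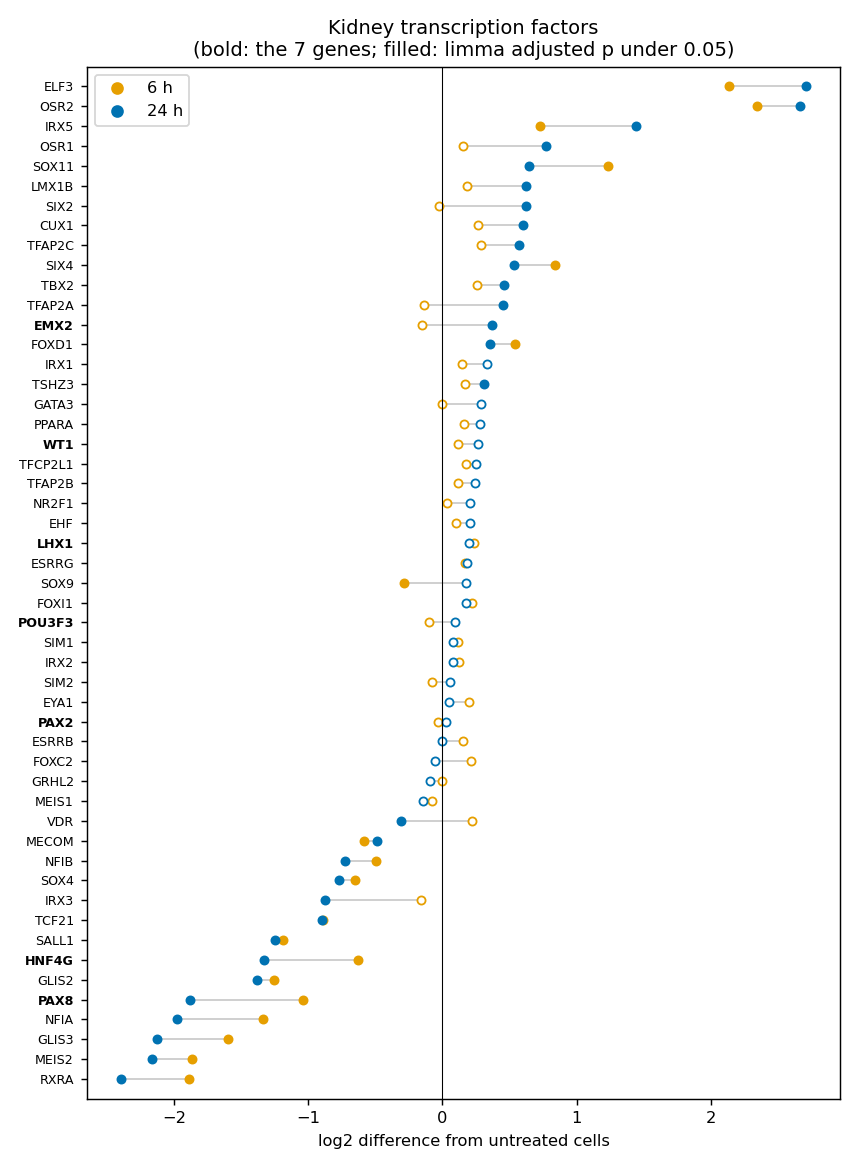
Log2 difference from control cells at 6 h (orange) and 24 h (blue) of 50 μM cisplatin for the 7 genes (bold) and 44 other kidney transcription factors, sorted by the 24 h value. Filled points passed limma at an adjusted p under 0.05. ELF3 at 2.71 and RXRA at -2.40 mark the ends, with PAX8 at -1.88 and HNF4G at -1.33 among the lowest.

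The cofactors and partners of these factors were measured for 24 of 28 genes. At 6 h 2 were higher (8.33%) and 10 lower (41.7%), at a median of -0.19, beside 14.0% and 15.8% of all genes. At 24 h 8 were higher and 8 lower (33.3% each), at a median of -0.06, beside 31.2% and 23.0% of all genes. WWTR1, the co-activator TAZ that binds PAX8, averaged 11.02 ± 0.03 in untreated cells, 10.37 ± 0.12 at 6 h and 9.64 ± 0.09 at 24 h (SD, n = 2 each), a log2 difference of -1.38 at 24 h (limma adjusted p = 5.55e-06). CREBBP, a histone acetyltransferase, differed by -1.45 at 6 h and -1.80 at 24 h, and SSBP3, which works with the LIM homeobox complex, by -0.63 and -1.39. LMO4, a LIM-only protein, was higher by 1.07 at 6 h and 1.21 at 24 h. LDB1, which bridges LIM homeobox proteins such as LHX1, differed by -0.35 at 6 h and was 0.71 higher at 24 h. TLE4, a Groucho corepressor of PAX proteins, differed by 0.00 at 6 h and was 1.16 higher at 24 h. Of their probe sets, 1 of 3 for TLE4 and 2 of 4 for LMO4 passed as higher at 24 h. The 24 h rises of LDB1 and TLE4 turned to falls with poly-A scaling, LDB1 also with all spike-ins, and LMO4 was at 0.00 with poly-A scaling.

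Of 24 genes known as targets of PAX2, PAX8, LHX1 or WT1 in kidney, thyroid or other cells, 18 were measured. At 24 h 6 were higher (33.3%) and 5 lower (27.8%), beside 31.2% and 23.0% of all genes. The median was 0.15 beside 0.10 for all genes. At 6 h 3 were higher (16.7%) and 4 lower (22.2%), beside 14.0% and 15.8% of all genes. VEGFA, the endothelial growth factor, averaged 11.19 ± 0.02 in untreated cells, 9.94 ± 0.08 at 6 h and 8.78 ± 0.02 at 24 h (SD, n = 2 each), a log2 difference of -2.41 at 24 h (limma adjusted p = 2.32e-07). IGF1R, the growth factor receptor, fell by 0.88 at 6 h and by 3.11 at 24 h, and SPRY1, an inhibitor of receptor tyrosine kinase signals, fell by 1.23 and 1.41. Of the 7 IGF1R probe sets, 4 passed as lower at 24 h. The 24 h mean of its main probe set, 3.36, lay in the signal range of unexpressed genes. RET, the receptor of the ureteric bud, CDH16, the kidney cadherin that PAX8 regulates, and AMHR2, the receptor of anti-Müllerian hormone, were 0.50, 0.58 and 0.68 higher at 24 h, and with all spike-ins or the poly-A spike-ins these turned to falls. AMHR2 passed as higher at 24 h on 1 of its 3 probe sets. CDH16 averaged 5.07 ± 0.21 in untreated cells, 5.37 ± 0.21 at 6 h and 5.64 ± 0.01 at 24 h (SD, n = 2 each), and so did not move in the direction of the main PAX8 probe set. Of 17 genes known as HNF4 targets in liver, 15 were measured, and 12 of them lay in the signal range of unexpressed genes in every group. At 24 h 7 were higher (46.7%) and none lower, as APOA1 (0.65), FBP1 (0.60) and TTR (0.58), beside 31.2% and 23.0% of all genes. Of the 449 sensory and hair genes, 18.9% were higher and 0.891% lower. The 24 h counts of the HNF4 targets became 1 higher and 3 lower with the background probe sets as the scale. None was higher and 6, 12 and 15 were lower with the hybridization, all and poly-A spike-ins. At an adjusted p under 0.05 limma called 1 of the 15 higher (6.67%) and none lower at 6 h, beside 14.0% and 15.8% of all genes.

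The cells were checked against cell type markers by the same signal range. Of 18 proximal tubule markers measured, GATM and MIOX lay above it in every group, and 14, with LRP2, CUBN, AQP1 and SLC34A1 among them, lay above it in none. The summed linear signal of the 18 was 572 to 594 in control cells, 629 to 651 at 6 h and 543 to 570 at 24 h. The sum joins opposite changes. At 24 h 4 of the 18 passed as higher (22.2%) and 3 as lower (16.7%), beside 31.2% and 23.0% of all genes. GATM was 0.60 higher at 24 h, and MIOX and SLC4A4 differed by -0.52 and -1.82. At 24 h 1 of 3 GATM probe sets passed as higher, and 3 of 3 of MIOX and 1 of 5 of SLC4A4 as lower. The GATM rise turned to a fall with all spike-ins or the poly-A spike-ins. Of 12 epithelial markers, 8 lay above the signal range in every group, as EPCAM, KRT8, KRT18 and KRT19, and CDH1 in none. Their summed signal was 11500 to 11700 in control cells, 7330 to 7420 at 6 h and 4660 to 4700 at 24 h, and moved with the PAX8 fall. The sum was carried mainly by the bright probe sets of CLDN1, a claudin of tight junctions, and KRT19, a keratin, which differed from control by -2.94 and -2.12 at 24 h. Of the 12, 4 passed as lower at 6 h (33.3%) and none as higher, at a median of 0.09, beside 15.8% and 14.0% of all genes. At 24 h 2 were higher (16.7%, CLDN4 at 0.81 and CDH16 at 0.58) and 5 lower (41.7%), at a median of 0.12. Of all genes, 31.2% were higher and 23.0% lower at 24 h. The part of these markers in the PAX8 fall was not tested. None of the measured podocyte, distal tubule or endothelial markers lay above the range in every group. GATA3 of 10 collecting duct markers did, as did DCN, LUM and VIM of 10 fibroblast markers and CD68 of 8 leukocyte markers, while PTPRC, CD3E, PDGFRB and COL1A1 did so in none. The label of proximal tubule cells thus rested on few of its defining markers here.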

How the data were processed

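RNA of HK-2 cells was measured on 6 arrays in 3 groups of 2. The authors made the deposited log2 values by robust multi-array average analysis (RMA) in Affymetrix Expression Console 1.1, which corrects the background, gives the probe signals of every array the same distribution and then summarizes them per probe set. Array medians of the deposited values were 4.45 to 4.54. They were not normalized again. The number of arrays limits the precision, and replicate arrays correlated at 0.996 to 0.998.

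Of 49386 probe sets, 45253 named 1 gene (45172 matched by Entrez number), 1327 several, 2713 were unnamed here and 93 were controls. Gene symbols and promoter windows came from RefSeq (GRCh38.p14). Tests used limma 3.58.1 (R 4.3.3), lmFit and eBayes, with Benjamini-Hochberg adjustment over 18239 genes or 49293 probe sets, and were tested on simulated data with 200 changed genes. Python 3.11.15 was used for the rest.

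The genes and lists were chosen with earlier results of these data known. Named were all genes of the set and, per list, up to 3 rises and 3 falls with the largest 24 h change among passing genes with separated arrays, and the 3 genes most like each gene that passed. Marker genes and other genes named beside a count serve as examples, chosen after their values were seen. The alternatives were the replicate block, the mean of all probe sets, probe sets in place of genes, trend and robust eBayes, only the groups compared, a low-signal filter (2 or more arrays with a log2 value of 5 or more), scaling to spike-ins, 11 housekeeping genes or background probe sets, the methods' rule (absolute log2 difference of at least 1, unadjusted p under 0.01) and leaving out each array.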

Additional observations from a re-analysis of the deposited data

Results flagged for a closer look

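The log2 difference from control was not the same at 6 h and at 24 h for 7 of the 16 probe sets, as the test of 24 h against 6 h showed (limma, adjusted p under 0.05). Of the 49293 probe sets that are no controls, 28.2% passed in this comparison, 15.2% higher and 12.9% lower. The signal was lower at 24 h than at 6 h for PAX8 on all 4 probe sets, with log2 differences of -0.84 (11724662_a_at), -0.79 (11724660_a_at), -0.52 (11724661_x_at) and -0.96 (11741652_a_at), and for HNF4G, with -0.71 (11730608_at). The last PAX8 probe set had been higher than in control cells at 6 h and the others lower. The difference of 11724661_x_at was no longer past the threshold without the second 24 h array (-0.37, adjusted p = 0.0744) or without the first 6 h array (-0.43, adjusted p = 0.112). The signal was higher at 24 h than at 6 h for EMX2, by 0.52, and for POU3F3 on 11763628_s_at, by 0.50. The mean of the background probe sets, which belong to no gene, was 0.27 higher at 24 h than in control cells, with all 23 probe sets higher. It was 0.29 higher at 24 h than at 6 h, again with all 23 higher.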

How the results depend on the processing

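The falls of PAX8 and HNF4G against control kept their direction at both times under each alternative. They passed in each as well, except that HNF4G at 6 h missed the methods' rule and that the filter on low signal removed HNF4G, and with it EMX2, WT1, PAX2 and POU3F3. A value was counted as turned round where its sign changed and it passed in the main or the alternative fit. Of the values of single genes, 18 passed newly, 8 no longer passed and 22 turned round, and of those of further probe sets 5, 26 and 29. The other 315 and 357 kept their call, and a change of sign with no pass in either fit counts among them. All that turned round did so under another scaling, and the cause was not tested. Signal over background limits the 5 genes in the range of unexpressed genes.

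Of the 7 genes, 2 passed at 6 h and 3 at 24 h against control, and 3 at 24 h against 6 h. With all spike-ins it was 5, 7 and 6, and with the poly-A spike-ins 6, 7 and 6. With the methods' rule it was 1 at 6 h and 0 between the times. With the filter it was 2 of 2 at 6 h (PAX8 and LHX1), 1 of 2 at 24 h and 1 of 2 between the times, with trend and robust eBayes it was 3, 4 and 3, and with the mean of all probe sets it was 2, 6 and 4. Of the 16 probe sets, 5 and 8 passed against control at 6 h and 24 h, and 7 between the times. With all spike-ins these were 9, 15 and 13, with the poly-A spike-ins 14, 16 and 14, and with the methods' rule 3, 4 and 0. With the filter 4 of 6 passed at 24 h and 4 of 6 between the times, and with the background scaling, chosen after seeing the data, 5 passed at 24 h. Leaving out each array gave 2 genes at 6 h in every case, 3 to 4 at 24 h and 3 between the times, and 4 to 5, 6 to 8 and 5 to 7 probe sets. Over all genes 5435, 9886 and 6906 passed, which became 10937, 16700 and 13338 with all spike-ins, 13452, 17293 and 14534 with the poly-A spike-ins and 900, 2210 and 614 with the methods' rule. Counts over all genes with the filter, trend and robust eBayes or the mean of all probe sets are not given here. Neither are those over all probe sets under an alternative. The counts of the set under these settings were therefore not read against a share of all features. The share of higher genes among the calls was 46.9%, 57.5% and 55.9%. It was 6.31%, 3.55% and 3.46% with all spike-ins, 2.42%, 1.52% and 1.35% with the poly-A spike-ins, 30.4%, 15.0% and 11.4% with the hybridization spike-ins, 31.2%, 49.8% and 61.4% with housekeeping genes and 49.9%, 26.1% and 13.6% with the background scaling. The median of all genes at 24 h was -0.78 with all spike-ins, -1.11 with poly-A, -0.31 with hybridization spike-ins and -0.17 with the background scaling.

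At 6 h against control, WT1 turned to -0.43 on its main probe set and to -0.39 on 11730686_a_at with the poly-A spike-ins, and PAX2 11728624_a_at to -0.42, POU3F3 11763628_s_at to -0.39 and LHX1 11763811_a_at to -0.44. At 24 h the main probe sets of PAX2, LHX1, EMX2, WT1 and POU3F3 turned to -0.86, -0.68, -0.51, -0.62 and -0.79 with all spike-ins and to -1.19, -1.01, -0.84, -0.95 and -1.12 with the poly-A spike-ins. With the hybridization spike-ins PAX2, EMX2 and POU3F3 turned to -0.38, -0.040 and -0.32, and with the background scaling PAX2 turned to -0.25. The further probe sets PAX2 11728624_a_at, WT1 11730686_a_at, LHX1 11736682_at, PAX8 11741652_a_at, HNF4G 11755628_a_at, POU3F3 11763628_s_at and LHX1 11763811_a_at turned to -0.77, -0.57, -0.42, -0.66, -0.83, -0.23 and -0.69 with all spike-ins and to -1.10, -0.90, -0.75, -0.99, -1.16, -0.56 and -1.01 with the poly-A spike-ins at 24 h. With the hybridization spike-ins WT1 11730686_a_at turned to -0.10 and HNF4G 11755628_a_at to -0.36. Between the times PAX2, WT1 and POU3F3 turned to -0.45, -0.36 and -0.32 with all spike-ins, and PAX2, EMX2, WT1 and POU3F3 to -0.61, -0.15, -0.52 and -0.48 with the poly-A spike-ins. WT1 11730686_a_at, HNF4G 11755628_a_at, POU3F3 11763628_s_at and LHX1 11763811_a_at turned to -0.36, -0.44, -0.012 and -0.42 with all spike-ins. With the poly-A spike-ins WT1 11730686_a_at, LHX1 11736682_at, HNF4G 11755628_a_at, POU3F3 11763628_s_at and LHX1 11763811_a_at turned to -0.51, -0.42, -0.60, -0.17 and -0.57.

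The labels number the arrays of each group, but nothing says that equal numbers share a culture. Deviations of equally numbered arrays correlated at 0.05 (control and 6 h), -0.06 (control and 24 h) and -0.06 (6 h and 24 h), so the numbers were not taken as a pairing. The replicate block changed no call of the 7 genes or 16 probe sets: with it 2, 3 and 3 genes and 5, 8 and 7 probe sets passed, and 5209, 9716 and 6689 of all genes.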
